A study of Mus musculus with 9 samples.

Results

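Macrophages act on the vessels, fibroblasts, epithelium and matrix around them through secreted factors, and 10 genes of such factors were read out of the 14905 in the table. They were taken by symbol: the ligand genes Vegfa, Vegfb, Pdgfa, Pdgfb, Pdgfc, Tgfb1, Hbegf and Osm, and the matrix genes Fn1 and Tnfaip6. Each had a row, and 0 of the 10 was at the table's floor of 1 in any library. The RNA came from cells carrying both F4/80 and CD11b, sorted from visceral adipose tissue of C57BL/6 mice and labelled as macrophages. There were 5 libraries from Nucb2-/- mice (KO) and 4 from wild-type mice (WT). Nucb2 encodes nucleobindin-2, the precursor of the peptide nesfatin-1, and its own normalized count was 1499.7 ± 219 in KO, against 4313 ± 791 in WT (SD, n = 5 and 4), without overlap. The series title places the study in obesity, and the deposited table's name carries the letters HFD, often short for high-fat diet, which would apply to both groups. The sample labels themselves give no diet, age or sex and do not say how the allele was made. The labels also leave unsaid whether any library is a mouse of its own, so a p-value here measures the spread between libraries, part of which may be technical.

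Growing or damaged tissue is rebuilt by signals of this kind, and adipose tissue depends on them when fat cells enlarge and outgrow their blood supply. VEGF proteins act on receptors of endothelial cells, with VEGF-A as the main driver of new vessels, and PDGF proteins act on fibroblasts, pericytes and progenitors. TGF-beta is released in a latent complex and, once activated, drives matrix production. HB-EGF is shed from the cell surface and activates the EGF receptor, and oncostatin M acts through receptors that share the gp130 chain with the interleukin-6 receptor. Fibronectin is a scaffold for other matrix proteins, and the product of Tnfaip6, TSG-6, binds hyaluronan and helps to transfer heavy chains onto it during inflammation.

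Of the 10 genes, Tnfaip6 was lower in KO and the other 9 did not pass the test. The test was limma on log2 of the normalized count plus 1, fitted over all 14905 genes, with a Benjamini-Hochberg adjusted p under 0.05. Of all genes tested, 0.309% passed, 0.127% as lower and 0.181% as higher in KO. At an unadjusted p under 0.05 there were 3 of the 10, Tnfaip6, Fn1 and Pdgfc, where 9.14% of all genes had such a p. Ranges of KO and WT were apart for 2 of the 10, as for 3.15% of all genes: Tnfaip6 lay lower in KO, as did 1.6% of all genes, and Fn1 higher, as did 1.55%. The 10 log2 differences had a median of -0.02, with 4 above and 6 below 0, and the median over all genes was 0.02. The 10 genes were chosen with earlier results of these data known, the call of Tnfaip6 among them. The counts beside the shares of all genes are therefore description only.

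**Figure D1:**
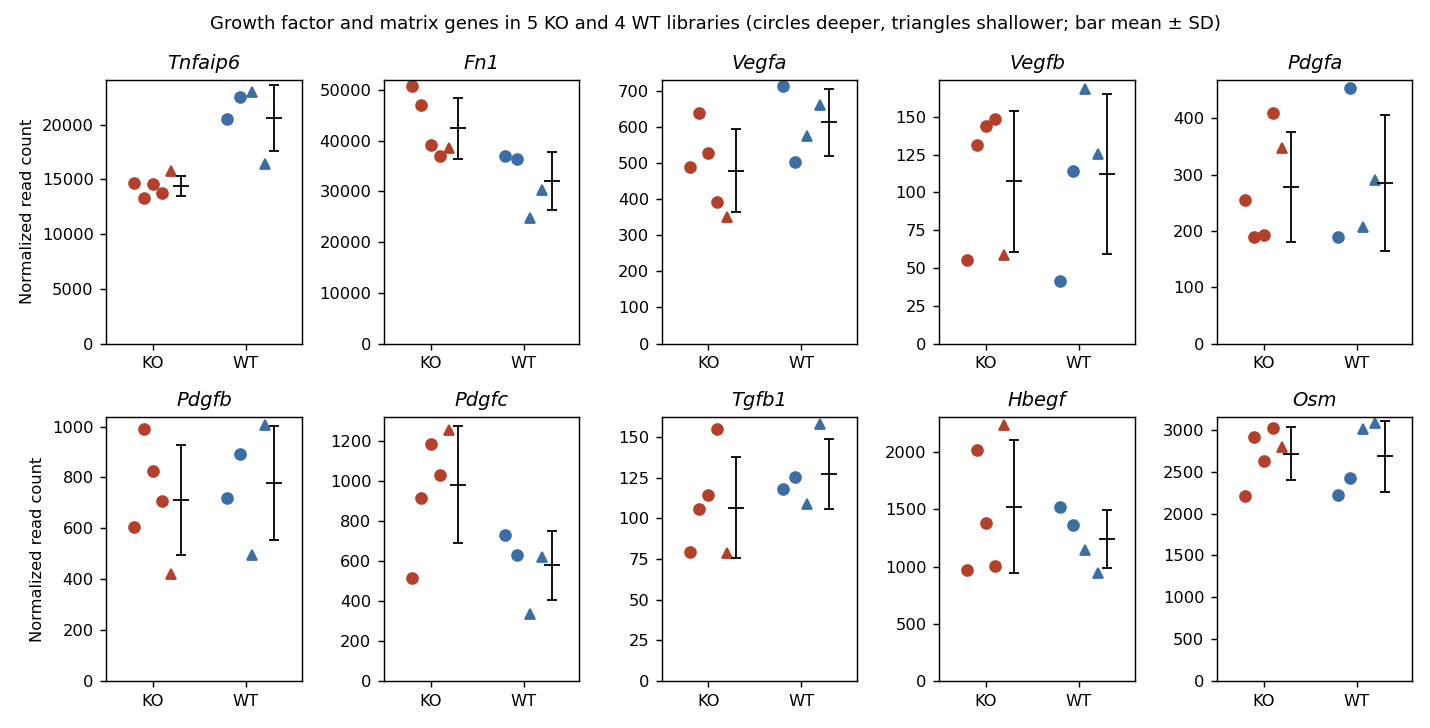
Normalized read counts of the 10 genes, 1 panel a gene, with the 5 KO libraries left and the 4 WT libraries right. Circles are the 6 deeper libraries, triangles the 3 shallower ones, and the bars give mean ± SD. The KO points lie below all WT points for Tnfaip6 and above them, by a small margin, for Fn1, and the points of the other 8 genes overlap.

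The matrix genes were the most abundant of the set. Tnfaip6 had 14654, 13336, 14528, 13794 and 15737 normalized counts in KO replicates 1 to 5, against 20531, 22476, 22971 and 16407 in WT replicates 1 to 4. The KO libraries lay close together and below each WT library, and WT replicate 4 lay nearest to them. The mean was 14409.8 ± 918 in KO, against 20596 ± 2985 in WT (SD, n = 5 and 4), so KO stood at 70.0% of WT by mean. The log2 difference was -0.51 (SE 0.10, 95% interval -0.72 to -0.29; limma adjusted p = 0.045), which placed the gene 43rd by p in the table. The exact permutation test of this gene alone, two-sided, gave 0.0159, the smallest p that 5 libraries against 4 allow. The gene was read 12028 to 24365 times a library, so counting error was 0.756% of the level, where the coefficient of variation was 6.37% in KO and 14.5% in WT. In bulk RNA, fewer cells that express a gene and less of its RNA per cell cannot be told apart, for Tnfaip6 or any gene here.

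The call for Tnfaip6 was close to the threshold. It was lost when any 1 library other than WT replicate 4 was left out. By limma, the adjusted p without KO replicate 1 was 0.17, without KO replicate 2 0.16, without KO replicate 3 0.23, without KO replicate 4 0.19 and without KO replicate 5 0.17. Leaving out WT replicate 1 gave 0.13, WT replicate 2 0.21, WT replicate 3 0.19 and WT replicate 4 0.025. The difference itself lay between -0.61 and -0.45 in those fits.

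Sequencing depth fell into a deeper class of 6 libraries, at 74937721 to 85200105 reads (KO replicates 1 to 4 with WT replicates 1 and 2), and a shallower class of 3, at 51148956 to 55004978 reads (KO replicate 5 with WT replicates 3 and 4). Among the deeper libraries Tnfaip6 differed by -0.61, with limma adjusted p = 0.12, and among the shallower ones, where no test was made, by -0.30. With depth class in the model it differed by -0.51, with adjusted p = 0.089.

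**Figure D2:**
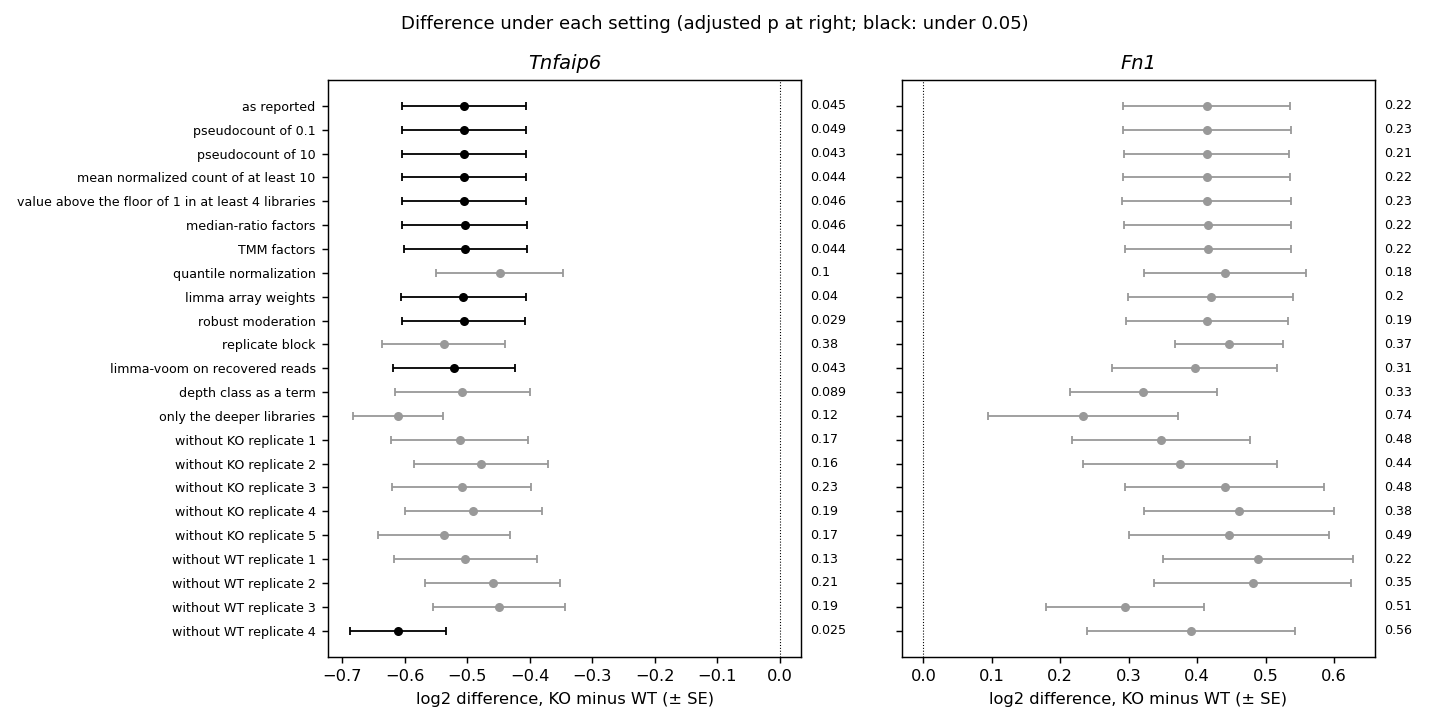
Log2 differences of Tnfaip6 and Fn1, KO minus WT, under the reported fit and its 22 alternatives, with the standard error as bars and the limma adjusted p at the right; black marks an adjusted p under 0.05. Tnfaip6 stays between -0.61 and -0.45 and Fn1 between 0.23 and 0.49.

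The Tnfaip6 gene runs from 52038009 to 52056686 on chromosome 2, plus strand (GRCm38, which is mm10; GENCODE M21). Its upstream sequence is shown because it is the member whose transcript passed the test. The window chr2:52037863-52038008 (GRCm38.p6, plus strand, RefSeq) ends just before the annotated gene, and the capitals mark a match to the AP-1 motif TGANTCA, from 52037971 to 52037977.

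Tnfaip6 upstream: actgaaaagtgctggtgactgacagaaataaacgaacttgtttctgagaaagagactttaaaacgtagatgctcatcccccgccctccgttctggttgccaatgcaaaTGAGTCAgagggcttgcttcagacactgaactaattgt

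Matches were looked for on both strands in the 250 bases before each RefSeq start. TGANTCA was found in 6.75% of the 32851 windows in the table, and ATGCAAAT, an octamer that overlaps the Tnfaip6 match, in 1.6%. A CCAAT match overlaps the octamer in turn, and 33.8% of windows held CCAAT. The printed stretch also holds a match to the STAT motif TTCNNNGAA, found in 7.02% of windows. It holds CCGCCC too, a GC box read on the minus strand, and 32.7% of windows held a GC box. The RefSeq table had entries for 6 of the 10 genes: Tnfaip6, Pdgfc, Pdgfa, Tgfb1, Vegfa and Vegfb. Among their 8 windows TGANTCA, ATGCAAAT and TTCNNNGAA each occurred in the Tnfaip6 window alone. The core of the hypoxia element, ACGTG, was in 1 of the 2 Vegfa windows and in 16.6% of all windows. Such a match describes letters and does not show that a factor binds.

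Fn1, the fibronectin gene on the minus strand of chromosome 1, lay on the other side. It had 50734, 46972, 39219, 37009 and 38518 normalized counts in KO replicates 1 to 5, against 36984, 36394, 24683 and 30195 in WT replicates 1 to 4. Every KO library was above every WT library, but KO replicate 4 and WT replicate 1 were almost level. Means were 42491 ± 6012 in KO, against 32064 ± 5800.1 in WT (SD, n = 5 and 4). The log2 difference of 0.41 (SE 0.12, 95% interval 0.15 to 0.67) did not pass over all genes (limma adjusted p = 0.22). The exact two-sided permutation p of Fn1 alone was 0.0159, the smallest that 5 libraries against 4 allow. Any gene with ranges apart gets that p, so it adds nothing to the separation. The log2 difference was 0.23 among the deeper libraries. Among the shallower ones, with KO replicate 5 as the only KO library and no test made, it was 0.50. The opposite-strand gene Apol7d overlaps Fn1 in the annotation, and whether counting used strand is not stated, so reads of this pair may not have been kept apart.

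Marker genes were read in the same libraries, as normalized counts not corrected for length. Macrophage markers were abundant: all 11 listed were measured, Lyz2 ranked 4th of all genes, and their summed level was 1539060 to 1710230 in KO, against 1586790 to 1784260 in WT. In limma 0 of the 11 passed and 6 had an unadjusted p under 0.05, with 4 differences above and 7 below 0. The complement genes C1qa and C1qc and the Fc receptor gene Fcgr1 had ranges apart, with log2 differences of -0.50 (adjusted p = 0.067), -0.39 (adjusted p = 0.095) and -0.50 (adjusted p = 0.12). The 4 differences above 0 were those of Itgam, the CD11b gene, at 0.18 (adjusted p = 0.52), Cd14 at 0.14, Csf1r at 0.12 and Mertk at 0.10. Cd68 was at -0.0002 and Lyz2 at -0.03. Fibroblast genes were abundant as well. All 12 listed were measured, 11 with a difference above 0 and 0 past the limma test (5 at an unadjusted p under 0.05), and they summed to 525501 to 795097 in KO, against 368080 to 553249 in WT. Gsn and Dcn ranked 23rd and 24th of all genes, and the F4/80 gene Adgre1 78th. Fibroblasts are known to make Fn1 and Tnfaip6 too, and the part of such cells in either difference was not tested.

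Other marker lists had smaller sums. Of 10 mesothelial genes 9 were measured, without Muc16, led by Upk1b and summing to 5778 to 18737 in KO, against 2286 to 7668 in WT. All 9 had a difference above 0, 0 passed the limma test and 6 had an unadjusted p under 0.05. The 12 endothelial genes summed to 5929 to 10596 in KO, against 3586 to 6289 in WT, with 0 past the limma test, 7 at an unadjusted p under 0.05 and a median of 1.29. Of the 12, 11 had a difference above 0, and Eng, the highest by normalized count, was the other, at -0.62. The 10 mast cell and basophil genes, led by Tpsb2, summed to 1917 to 3623 in KO, against 6212 to 10957 in WT, the groups apart, with 4 past the test, all lower in KO, and Fcer1a at the floor throughout the KO libraries. The 8 pericyte and smooth muscle genes, led by Pdgfrb, summed to 3092 to 6682 in KO, against 2422 to 4268 in WT. For them 0 passed the limma test, and 6 differences lay above 0. The 6 of 9 neutrophil genes measured, without Ly6g, Ngp and Camp, summed to 2546 to 4336 in KO, against 1990 to 2983 in WT. Most of that was Csf3r, at 2646 in KO, against 2032 in WT. Of the 6, 0 passed and 5 differences lay above 0. Mmp9 had 433 ± 117 in KO, against 112 ± 14.5 in WT, with ranges apart (limma adjusted p = 0.089). Of 8 platelet genes 6 were measured, led by Pf4, and summed to 37027 to 51117 in KO, against 35693 to 53466 in WT. Pf4 alone averaged 44072 in KO, against 46560 in WT, and the highest mean of any other platelet gene was 192, in WT. The 8 adipocyte genes, led by Fabp4, summed to 38715 to 52299 in KO, against 41882 to 61575 in WT. Fabp4 alone averaged 44516 in KO, against 54166 in WT, and the highest mean of any other adipocyte gene was 331, for Lep in WT. Lep had 45.7 ± 66.1 in KO, against 331 ± 176 in WT, with ranges apart (limma adjusted p = 0.17). The platelet and adipocyte sums therefore each follow the leading gene and say little of the other genes listed. In limma 0 passed in either list. Differences above and below 0 numbered 2 and 4 for platelet genes, and 4 and 4 for adipocyte genes. The 13 genes induced by tissue dissociation, led by Zfp36, summed to 368905 to 490014 in KO, against 317409 to 369307 in WT. Of the 13, 12 had a difference above 0, 0 passed the limma test and 10 had an unadjusted p under 0.05. Over all genes 9.14% had such a p. The part of these cells, and of handling, in the growth factor levels was not tested.

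**Figure D3:**
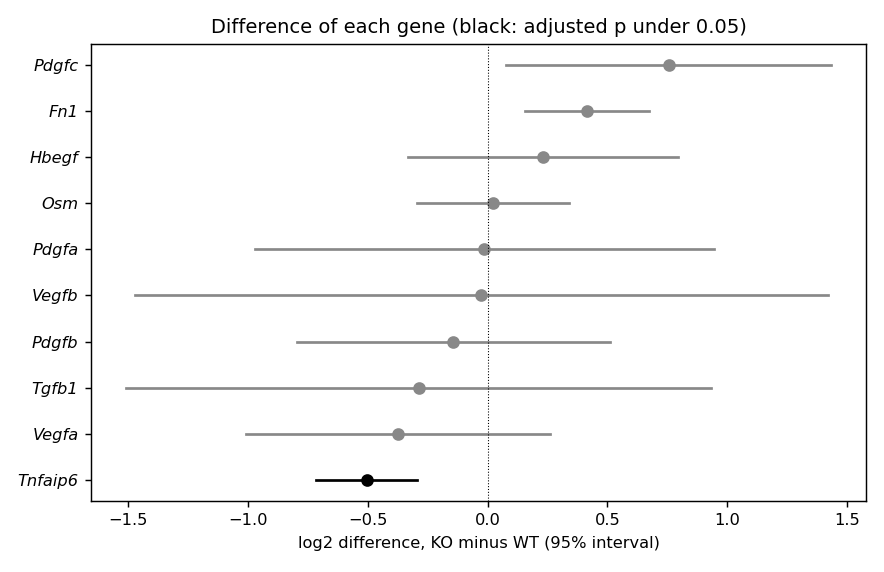
The log2 difference of each gene, KO minus WT, with its 95% interval from limma. The black point is Tnfaip6 at -0.51, the gene past the adjusted threshold, and the widest interval, that of Vegfb, runs from -1.47 to 1.42.

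Neither VEGF gene passed the test. Vegfa had 489, 638, 527, 391 and 350.1 normalized counts in KO replicates 1 to 5, against 712, 503, 574 and 662 in WT replicates 1 to 4. KO replicates 1, 4 and 5 lay below each WT library, and KO replicates 2 and 3 were among the WT values. The means were 479 ± 114 in KO, against 613 ± 92.8 in WT (SD, n = 5 and 4), with a log2 difference of -0.37 (95% interval -1.01 to 0.26; limma adjusted p = 0.75; exact permutation p = 0.111). The interval spans folds of 0.497 to 1.20.

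Vegfb encodes a relative of VEGF-A known more for vessel survival than for sprouting. It had 55.1, 131, 144, 149 and 58.6 normalized counts in KO replicates 1 to 5, against 41.1, 114, 168 and 125 in WT replicates 1 to 4. KO replicates 1 and 5 and WT replicate 1 were low, and the rest of both groups overlapped at a higher level. Its log2 difference was -0.03, and with 45 to 192 reads a library the interval spans folds of 0.36 to 2.68. The difference in Vegfb was 0.69 among the deeper libraries. Among the shallower ones it was -1.30, untested, with KO replicate 5, at 46 reads, as the only KO library. Per kilobase of transcript, the share of Vegfa in the pair was 63.4% ± 10.5 in KO, against 67.7% ± 13.3 in WT.

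Among PDGF genes, Pdgfc stood apart from Pdgfa and Pdgfb in its values, a contrast that was not itself tested. Pdgfc encodes a latent ligand of the alpha receptor. It had 516, 917, 1186, 1030.4 and 1258 normalized counts in KO replicates 1 to 5, against 732, 630.0, 333 and 619 in WT replicates 1 to 4. KO replicates 2 to 5 lay above each WT library, and KO replicate 1 lay within the WT range. Its mean of 981 ± 292 in KO, against 579 ± 172 in WT (SD, n = 5 and 4), gave a fitted fold of 1.69, on the log2 scale 0.76 (SE 0.32, 95% interval 0.08 to 1.44). It did not pass over all genes (limma adjusted p = 0.48), and the exact permutation p was 0.0635. The difference was 0.36 among the deeper libraries. Among the shallower ones it was 1.47, untested, with KO replicate 5 as the only KO library.

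Pdgfb, whose product recruits pericytes, had 606, 991, 827, 706 and 420.1 normalized counts in KO replicates 1 to 5, against 721, 894, 495 and 1008 in WT replicates 1 to 4. KO replicate 5 was the lowest and WT replicate 4 the highest, and the other libraries overlapped. Pdgfa, another ligand gene of the alpha receptor, had 255, 189, 192, 410.1 and 348 normalized counts in KO replicates 1 to 5, against 188, 454, 207 and 291 in WT replicates 1 to 4. Both groups held low and high Pdgfa libraries. The log2 difference was -0.14 (95% interval -0.80 to 0.51) for Pdgfb and -0.01 (95% interval -0.97 to 0.95) for Pdgfa. Within the sum of the 3 ligands per kilobase, the share of Pdgfc was 41.9% ± 8.76 in KO, against 29.1% ± 6.10 in WT, with overlapping ranges. That of Pdgfb was 37.2% ± 10.6 in KO, against 46.6% ± 3.77 in WT, and that of Pdgfa 21.0% ± 7.12 in KO, against 24.3% ± 6.49 in WT (SD, n = 5 and 4). Shares are given without a test. In the annotation Pdgfa, Pdgfb and Pdgfc each overlap an antisense gene, whose reads may not have been kept apart.

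Tgfb1, which encodes the TGF-beta best known from fibrosis, had the lowest level per length of the 10 genes in the deposited table. Its count was low for a gene known to be expressed in macrophages, and the rule by which reads were counted is not stated, which limits what this level means. It had 79.3, 106, 114, 155 and 78.9 normalized counts in KO replicates 1 to 5, against 118, 125, 109 and 158 in WT replicates 1 to 4. KO replicates 1, 2 and 5 were under all WT values and the others overlapped. The log2 difference was -0.29 (95% interval -1.51 to 0.93; limma adjusted p = 0.91), on 62 to 200 reads a library. Nrros, which encodes a protein that holds latent TGF-beta on myeloid cells, stood at 27884 ± 1591 normalized counts in KO, against 27959 ± 2502 in WT (limma adjusted p = 0.998).

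Hbegf and Osm were at middle levels. Hbegf had 973, 2016, 1384, 1002 and 2243 normalized counts in KO replicates 1 to 5, against 1521, 1359.7, 1149 and 941 in WT replicates 1 to 4. KO replicates 2 and 5 exceeded every WT library and KO replicates 1 and 4 were near the lowest of them, with a coefficient of variation of 38.2% in KO and 20.3% in WT. The log2 difference was 0.23 (95% interval -0.33 to 0.80; limma adjusted p = 0.83), and it was -0.16 among the deeper libraries. Among the shallower ones it was 1.11, untested, with KO replicate 5 as the only KO library. With 1 library left out it lay between 0.07, without KO replicate 5, and 0.37, without KO replicate 1, and it was 0.11 without KO replicate 2 and 0.11 without WT replicate 4.

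Osm had 2209.6, 2913, 2628, 3025 and 2802 normalized counts in KO replicates 1 to 5, against 2228, 2426, 3009.8 and 3081 in WT replicates 1 to 4. These ranges nearly coincided. Osm had the narrowest interval among the ligand genes, -0.30 to 0.34 around 0.02, which spans folds of 0.814 to 1.26 (limma adjusted p = 0.98).

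**Figure D4:**
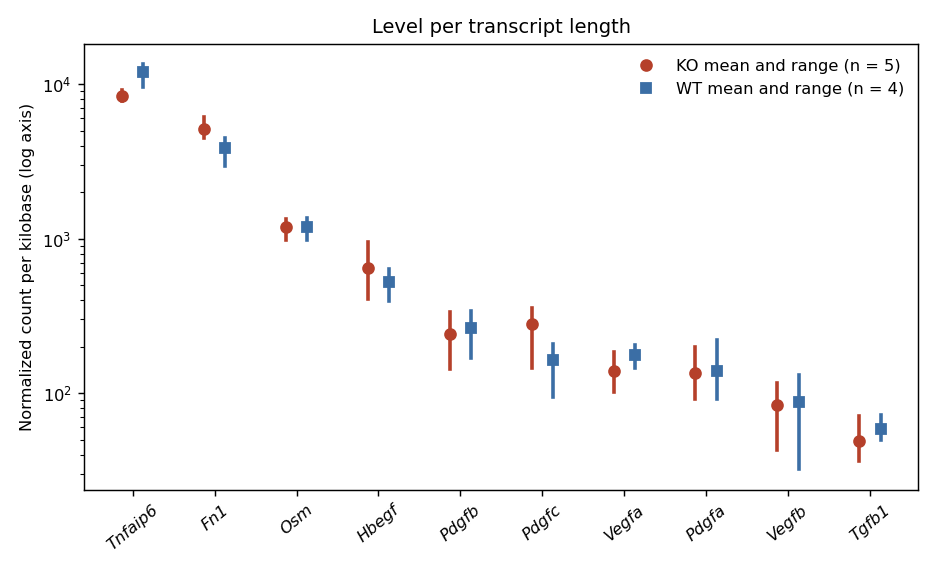
Normalized count per kilobase of the longest coding transcript for each gene, on a log axis, with KO (circles) left of WT (squares), means as points and the range over libraries as lines. Tnfaip6 and Fn1 stand highest and Tgfb1 lowest, where the Tgfb1 level rests on few reads under a counting rule that is not stated.

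Set against transcript length, the levels had a clear order at the top only. Per kilobase Tnfaip6 averaged 8427 ± 537 in KO, against 12044 ± 1745 in WT (SD, n = 5 and 4, as for the levels that follow), and Fn1 5110.1 ± 723 in KO, against 3856 ± 698 in WT. Osm followed at 1195 ± 140.2 in KO, against 1182 ± 187 in WT, then Hbegf at 642 ± 245 in KO, against 523 ± 106 in WT. Each of these 4 genes lay outside the range of the next in both groups at this length. With the union of all exons as length, an alternative chosen after seeing the data, the order by mean over all libraries was the same, but Hbegf at 201 to 464 per kilobase in KO and 195 to 315 in WT overlapped Pdgfb at 101 to 238 per kilobase in KO and 119 to 242 in WT, and in KO also Pdgfc. Pdgfb averaged 241 ± 73.5 in KO, against 265 ± 75.9 in WT, and Pdgfc 279 ± 83.0 in KO, against 164 ± 48.7 in WT, so their order differed between the groups, within overlapping ranges. Vegfa averaged 139 ± 33.0 in KO, against 178 ± 26.9 in WT, and Pdgfa 135 ± 47.4 in KO, against 138 ± 58.7 in WT, again overlapping. Vegfb averaged 83.9 ± 36.5 in KO, against 87.7 ± 41.2 in WT, and Tgfb1 49.0 ± 14.4 in KO, against 58.7 ± 9.90 in WT, and these ranges overlapped too.

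Genes that act with these factors were read from 11 lists, with 134 distinct genes measured of 143 listed. Past the limma test there was 1 higher gene and 0 lower, and 25 (18.7%) had an unadjusted p under 0.05, where 0.309% of all genes passed and 9.14% had such a p. The median difference was 0.04, and that over all genes 0.02. Values of these genes are normalized counts, as mean ± SD over 5 KO and 4 WT libraries. The gene that rose was Ecm1, which encodes an extracellular matrix protein. It had 23698 ± 2561 normalized counts in KO, against 16327 ± 1768 in WT (SD, n = 5 and 4), with ranges apart, a log2 difference of 0.54 and limma adjusted p = 0.022. By limma-voom on reads recovered from the table, Ecm1 was again the single one of the 134 called. It was called in the fit without WT replicate 1, and 0 of the 134 passed in each fit that left out another library, KO replicates 1, 2, 3, 4 or 5 or WT replicates 2, 3 or 4.

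**Figure D5:**
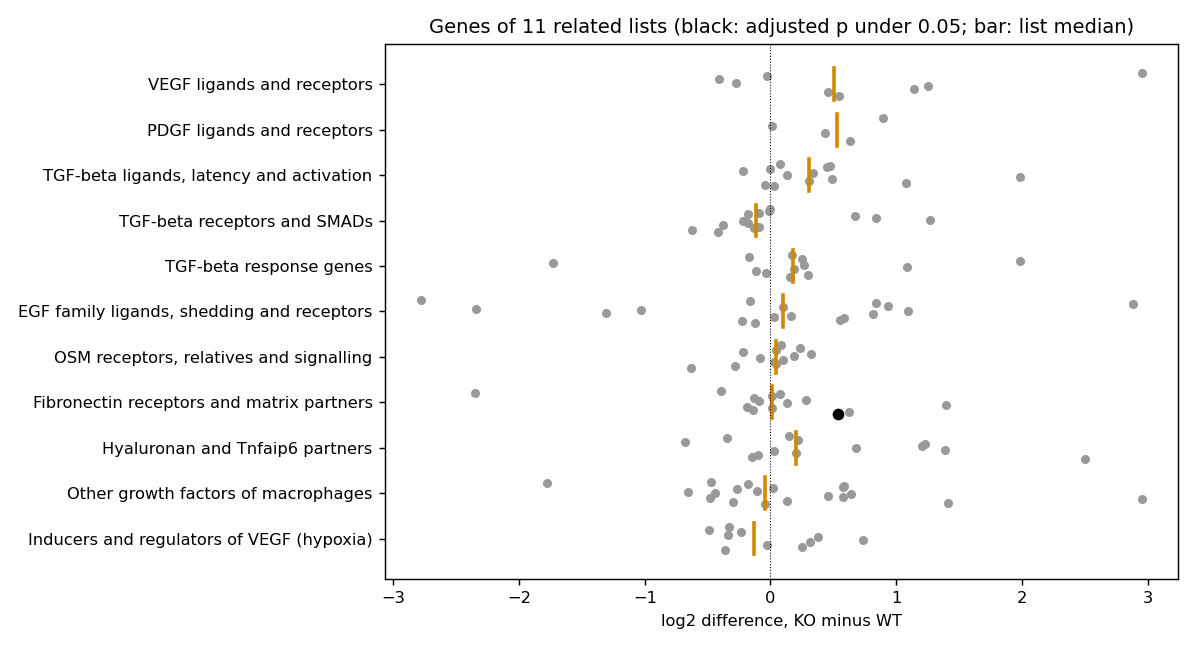
Log2 differences, KO minus WT, of the genes in 11 lists around the growth factors, 1 point a gene in each list, with the list median as a bar. Ecm1 is the black point, at 0.54. The points of each list fall on both sides of 0 except in the PDGF list, where all 4 lie above it.

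Receptors and partners of the VEGF and PDGF ligands were scattered. Of 8 VEGF genes 0 passed and 3 had an unadjusted p under 0.05, with a list median of 0.50. Nrp1, an abundant co-receptor gene, had 29706 ± 2099 in KO, against 35957 ± 2508 in WT, with ranges apart (log2 difference -0.28, limma adjusted p = 0.18). Its relative Nrp2 had 2073 ± 459.8 in KO, against 2706 ± 194 in WT (adjusted p = 0.48). The Nrp2 ranges were apart by a small margin, with 2545 the highest in KO and 2553 the lowest in WT. The lymphangiogenic ligand gene Vegfc had 284 ± 109 in KO, against 67.6 ± 54.1 in WT (adjusted p = 0.33). Of 4 PDGF genes 0 passed and 2 had an unadjusted p under 0.05, with a median of 0.53. The receptor-like gene Pdgfrl had 1518 ± 314 in KO, against 836 ± 240.4 in WT, with ranges apart (adjusted p = 0.18). Pdgfra, the alpha receptor gene and a marker of fibroblasts, had 4899.5 ± 999 in KO, against 3701 ± 1054 in WT (adjusted p = 0.51), and the ligand gene Pdgfd 624 ± 334 in KO, against 352 ± 96.9 in WT (adjusted p = 0.74).

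TGF-beta genes did not pass the test in any of 3 lists. Of 13 genes of ligands, latency and activation 0 passed and 2 had an unadjusted p under 0.05 (median 0.31). Ltbp1, which tethers the latent complex to matrix, had 1798 ± 507 in KO, against 1242 ± 131 in WT (limma adjusted p = 0.52), its relative Ltbp2 288 ± 160.1 in KO, against 121 ± 119 in WT (adjusted p = 0.54), and the ligand gene Tgfb3 1132 ± 228 in KO, against 842 ± 294 in WT (adjusted p = 0.63). Of 14 receptors and SMADs 0 passed and 2 had such a p (median -0.11). The receptor gene Acvrl1 had 3181 ± 472 in KO, against 4352 ± 1224 in WT (adjusted p = 0.48), its co-receptor gene Eng 1045 ± 409.6 in KO, against 1507 ± 183 in WT (adjusted p = 0.53), and the signal mediator Smad2 2343 ± 555 in KO, against 2974 ± 237 in WT (adjusted p = 0.55). Of 12 response genes 0 passed and 2 had such a p (median 0.18): Id3 had 28203 ± 4646 in KO, against 23179.8 ± 1195 in WT (adjusted p = 0.46), Ltbp2 stood in this list too, and Id1 had 211 ± 43.5 in KO, against 119 ± 83.9 in WT (adjusted p = 0.62).

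In the EGF list 0 of 17 measured genes passed and 2 had an unadjusted p under 0.05 (median 0.10). Egfr, the receptor gene for HB-EGF, had 2189.9 ± 301 in KO, against 1261 ± 272 in WT, with ranges apart (log2 difference 0.81, limma adjusted p = 0.098). Adam17, which encodes a shedding protease, had 12744 ± 1189.8 in KO, against 14978 ± 2210.1 in WT (adjusted p = 0.55), and the low ligand gene Nrg4 39.6 ± 38.3 in KO, against 3.27 ± 3.74 in WT (adjusted p = 0.44). In the oncostatin list 0 of 12 passed and 1 had such a p (median 0.04). The receptor chain gene Lifr had 9139 ± 624.8 in KO, against 7383 ± 1205 in WT (adjusted p = 0.34), the cytokine gene Clcf1 371 ± 114 in KO, against 575 ± 226 in WT (adjusted p = 0.65), and the feedback inhibitor Socs3 9977 ± 2340.5 in KO, against 8378 ± 980.3 in WT (adjusted p = 0.65).

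The matrix lists held the partners of Fn1 and Tnfaip6. Of 14 fibronectin receptors and partners 1 passed, Ecm1, and 2 had an unadjusted p under 0.05 (median 0.01), the other being the matrix gene Fbln1 with 4100.1 ± 896 in KO, against 2635 ± 444 in WT (limma adjusted p = 0.19). Of 13 measured hyaluronan genes 0 passed and 4 had such a p (median 0.20). Lyve1, a hyaluronan receptor of lymphatic vessels and some resident macrophages, had 3081 ± 1333 in KO, against 1252 ± 386 in WT (adjusted p = 0.13). The hyaluronidase gene Hyal2 had 1538 ± 109 in KO, against 1003 ± 322 in WT, with ranges apart (adjusted p = 0.30), and Hyal1 502 ± 155 in KO, against 216 ± 123 in WT (adjusted p = 0.33). Ptx3, whose product works with TSG-6 in cross-linking hyaluronan, had 916 ± 114 in KO, against 1539 ± 550.4 in WT (adjusted p = 0.35).

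Of 19 other growth factor genes 0 passed and 4 had an unadjusted p under 0.05 (median -0.04). Gdf3, a ligand of the TGF-beta family, had 7519.9 ± 1416 in KO, against 11771 ± 1999.5 in WT, with ranges apart (log2 difference -0.65, limma adjusted p = 0.081). Gas6, which bridges dying cells and their receptors, had 3129 ± 621 in KO, against 2013 ± 467 in WT (adjusted p = 0.23), and the stress-induced ligand gene Gdf15 3031 ± 434 in KO, against 4162 ± 1022 in WT (adjusted p = 0.38). Of 10 genes that regulate VEGF, 0 passed and 2 had such a p (median -0.13). Nfe2l2, which encodes the oxidative stress factor NRF2, had 48236 ± 1915 in KO, against 56658 ± 1571 in WT, with ranges apart (adjusted p = 0.16). The prostaglandin synthase gene Ptgs2 had 14232 ± 2404 in KO, against 20388 ± 6356 in WT (adjusted p = 0.29), and Hif1a, of the hypoxia response, 3088 ± 594 in KO, against 3892 ± 743 in WT (adjusted p = 0.56).

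The genes most like Tnfaip6 over the 9 libraries were Ccl11, which encodes the eosinophil attractant eotaxin, Lysmd3, and H2-M3, a nonclassical MHC class I gene. Likeness was the mean absolute difference between log2 values centred on each gene's own mean, over 7290 genes, and came to 0.107 for Ccl11, 0.108 for Lysmd3 and 0.117 for H2-M3. None of the 3 passed the limma test: the log2 difference was -0.49 for Ccl11, -0.44 for Lysmd3 and -0.43 for H2-M3. The search used these same KO and WT libraries, so differences near that of Tnfaip6 follow from it. For Pdgfc the nearest were Stx2, Bcor and Cilp, at 0.251, 0.254 and 0.255. The coefficient of variation of Pdgfc was 29.8% in KO and 29.7% in WT, against 6.37% and 14.5% for Tnfaip6. A distance grows with such spread, so those of the 2 genes are not compared.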

How the data were processed

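RNA sequencing of 5 KO and 4 WT libraries was read from 1 table of 14905 genes. Per the labels' protocols, oligo-dT selected RNA was made into strand-specific libraries. Tools in the submitters' processing notes, without roles, were HISAT, Partek, DESeq2 and CASAVA 1.8.2, and the build was mm10. How shared reads were counted, with which annotation and strand setting, and how genes were filtered is not given in the sources used here. Each deposited value is a normalized signal: reads over 1 factor per library, with a floor of 1. That was read from the values, since 100% of the low values above the floor were whole multiples of 1 step per library, within 0.1 of a step, giving 51148956 to 85200105 reads a library. In the 6 deeper libraries 1 step is under 1, so the floor merges 0 and 1 read there, and no count model was the main test.

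Differences were tested on log2(value + 1) with limma 3.58.1 (R 4.3.3), a mean-variance trend, genotype the only term, Benjamini-Hochberg over all genes; folds on that scale understate changes of low genes. Exact permutation tests used SciPy 1.17.1 under Python 3.11.15, and figures matplotlib 3.10.9. Lengths and positions are of GENCODE M21 on GRCm38. The code was tested on simulated data.

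The 10 genes and the lists were chosen with earlier results of these data known, including that Tnfaip6 passed. Named are the 10 genes, Nucb2, called genes of each list and otherwise up to 3 with the smallest p, the top marker genes, and the 3 genes most like Tnfaip6 and Pdgfc. Nrros, Ptx3, Fbln1, Fcer1a, Dcn, Adgre1, C1qa, C1qc, Fcgr1, Itgam, Cd14, Csf1r, Mertk, Cd68, Mmp9 and Lep were named after their values were seen. Sample titles number the replicates without saying whether equal numbers pair the libraries. Deviations of same-numbered libraries correlated at -0.02 to 0.02 across all genes. Low genes, with their noise, counted equally there, so the check cannot exclude pairing. Alternatives were other pseudocounts (0.1, 10), filters, scalings, weights, robust moderation, a block, depth terms, limma-voom and each library left out.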

Additional observations from a re-analysis of the deposited data

How the results depend on the processing

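Tnfaip6 kept its direction under all 22 alternatives (-0.61 to -0.45) and its call under 10 of them. It lost the call under quantile normalization (-0.45, limma adjusted p = 0.10), a model with depth class (-0.51, 0.089), the replicate block (-0.54, 0.38) and the 6 deeper libraries (-0.61, 0.12), and under 8 of 9 fits that left out 1 library, whose values lay between -0.61 and -0.45. In each of those settings 0 of the 10 genes passed in limma, so leaving out 1 library gave counts of 0 to 1. At an unadjusted p under 0.05 there were 2 to 3 with 1 library left out, and 1 in the 6 deeper libraries. The block leaves out KO replicate 5 and treats equal replicate numbers as pairs, which the sample titles neither state nor exclude. Fn1, Pdgfc, Vegfa and Tgfb1 kept their sign throughout and were never called. Signs turned for genes with no difference past the test. Vegfb was at 0.0095 with array weights, 0.16 with the replicate block, 0.12 with limma-voom, 0.029 with a depth term and 0.69 in the deeper libraries, and at -0.45 to 0.22 with 1 library left out. Pdgfa was at 0.0095 with a depth term and at -0.18 to 0.24 with 1 library left out, Pdgfb at 0.032 with the block and at -0.34 to 0.032, Hbegf at -0.16 in the deeper libraries, and Osm at -0.0645 to 0.093. The cause was not tested. Of the 134 partner genes 0 passed with the block and in the deeper libraries (19 and 17 at an unadjusted p under 0.05), and 0 to 1 with 1 library left out; with a depth term the 1 gene called was Gdf3, not Ecm1. Over all genes 46 passed, against 0 with the block (1104 at an unadjusted p under 0.05), 0 in the deeper libraries (1039) and 5 to 38 with 1 library left out. The exon union as length, chosen after seeing the data, moved no family share by more than the spread. Tests by edgeR and DESeq2 on recovered reads were not run, as the floor merges 0 and 1 read in the 6 deeper libraries. Vegfb and Tgfb1 had the fewest reads, 45 to 192 and 62 to 200 a library; counting error was 9.37% and 9.11% of their levels, less than their spread between libraries.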
